A study of Mus musculus with 60 samples.

Results

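The anti-HA peak lists of H3R2C and H3WT cells map where a tagged histone H3 with its arginine 2 changed to cysteine was found on chromatin, beside the same tagged histone without the change. They were taken by their sample titles, 3 labelled replicates of each genotype, which made 6 of the 60 samples of the series. In each genotype the lists of replicates 1 and 2 held identical values and were counted once, so that 4 independent lists were compared, 2 per genotype. The read totals listed for these samples differ, so the shared list may stem from a single one of them, and which one is not known. The words "replicates 1 and 2" name that list. The cells were C3H 10T1/2, a line of mouse mesenchymal progenitors that can enter the fat, cartilage, bone and muscle lineages. Both genotypes carried a lentiviral transgene for human histone H3.1 with a C-terminal tag of HA and FLAG, driven by an EF1 promoter and kept under puromycin, and both still made their own H3. The cells were pools of transduced cells, not single clones. The same peaks in the cells with H3R8C, H3R17C or H3R26C, 9 labelled samples with 6 independent lists, served as a second comparison.

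Histone H3.1 is the form of H3 that is made in S phase and placed behind the replication fork over the whole genome by the chaperones CAF-1 and ASF1, unlike H3.3, which is placed outside replication at active genes. Arginine 2 of H3 can be methylated by arginine methyltransferases, and it lies next to lysine 4, whose trimethylation marks active gene starts. CUT&RUN finds the position of a protein with an antibody that brings a nuclease to chromatin, after which the cut DNA is sequenced. A peak in these lists is a block of coverage, with a total signal (coverage summed over its bp) and a maximum signal. Positions are on mm10.

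The lists differed in how many peaks they held and in how wide these were. The list shared by H3WT replicates 1 and 2 was the smallest, with 15344 peaks, and this number of top peaks by total signal was therefore taken from every list. H3WT replicate 3 had 37907 peaks in all, and the H3R2C lists had 51114 (replicates 1 and 2) and 50990 (replicate 3). The median width of the top peaks was 10.7 kb and 4.3 kb in the H3WT lists and 1.00 kb and 2.05 kb in the H3R2C lists. The top peaks covered 213 Mb and 82.7 Mb of the genome in H3WT, and 16.7 Mb and 37.0 Mb in H3R2C. On average H3WT covered 148 ± 92.4 Mb and H3R2C 26.8 ± 14.3 Mb (SD over 2 lists each). The genotypes did not overlap in either measure. With 2 lists against 2, the smallest two-sided p of an exact permutation test is 0.333, which is what both measures gave, so the values themselves carry each comparison below.

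**Figure D1:**
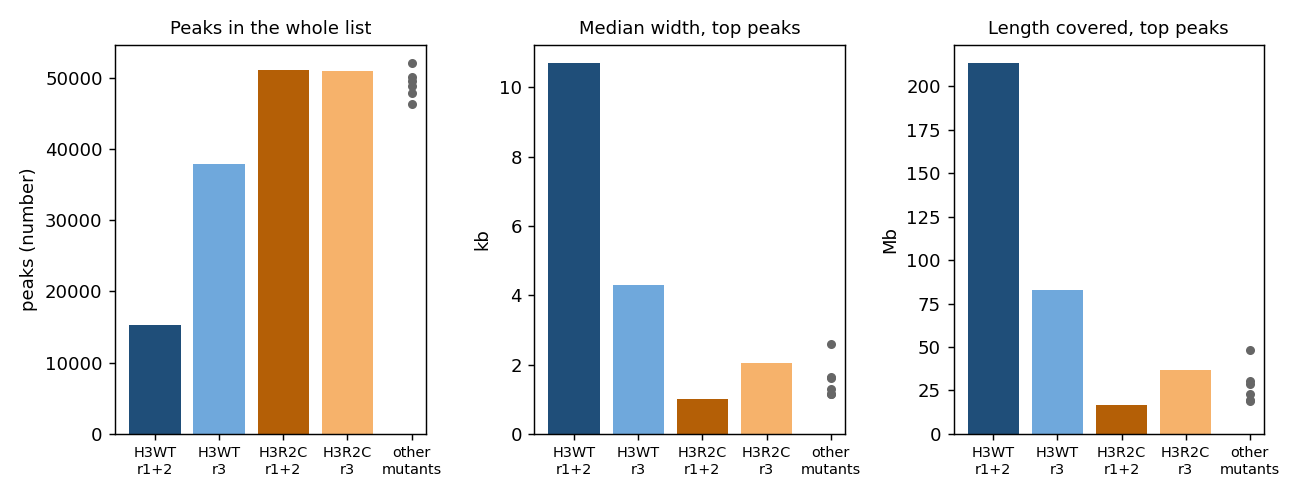
Bars give, for each of the 4 independent lists, the number of peaks, the median width (kb) of the 15344 top peaks and the length they cover (Mb), and grey points give the 6 lists of the other mutants (r1+2 is the list shared by replicates 1 and 2). Both H3WT lists have wider top peaks than any of the other lists shown.

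The H3WT lists stood apart from every mutant, not from H3R2C alone. The 6 lists of the other mutants had median top-peak widths of 1.15 to 2.60 kb and covered 19.2 to 48.5 Mb, and H3R2C differed from their means by -0.05 kb and -1.45 Mb (exact permutation p = 1 for both, where the smallest p possible with 2 against 6 is 0.0714). Coverage was shallow. The median maximum signal of a top peak was 16 and 10 in the H3WT lists and 5 and 7 in the H3R2C lists, and the lowest total signal of a top peak fell from 43200 in H3WT replicates 1 and 2 and 10150 in H3WT replicate 3 to 1800 and 4400 in the H3R2C lists. A gene without a peak is one that lay below the level of that list, and the part of depth and of the peak caller in the widths was not tested. By the listed read totals, H3WT replicates 2 and 3 were sequenced more deeply than every replicate of H3R2C and of the other mutants.

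A few sites with very high coverage were common to all 4 lists. The 8 strongest peaks of H3WT replicates 1 and 2 held 40.6% of its summed signal, and the same sites held 48.3% in H3WT replicate 3, 66.7% in H3R2C replicates 1 and 2 and 58.9% in H3R2C replicate 3. The strongest lay on chromosome 2, at chr2:98661401-98668850, with a maximum signal of 338169 to 1730260 across the lists. Ranks of peaks and counts of genes were used here in place of summed signal.

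Sequences from the mm10 reference are printed for 8 gene starts, so that the kinds of site behind the counts can be seen. Each is 300 bp of the plus strand around the centre of maximum signal, read in H3R2C replicate 3, or in H3WT replicate 3 for the genes found only in H3WT, with CpG dinucleotides in capitals. The first 3 had a top peak in both H3R2C lists and in neither H3WT list. They are at chr4:88776676-88776975, chr4:88773776-88774075 and chr8:83955276-83955575.
Gm13289: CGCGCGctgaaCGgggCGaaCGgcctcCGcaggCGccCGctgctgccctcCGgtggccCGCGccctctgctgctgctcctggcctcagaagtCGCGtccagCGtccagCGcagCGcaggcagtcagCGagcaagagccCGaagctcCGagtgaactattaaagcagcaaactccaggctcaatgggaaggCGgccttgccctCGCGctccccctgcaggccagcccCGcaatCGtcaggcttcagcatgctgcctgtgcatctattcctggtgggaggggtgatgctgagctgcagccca
Gm13290: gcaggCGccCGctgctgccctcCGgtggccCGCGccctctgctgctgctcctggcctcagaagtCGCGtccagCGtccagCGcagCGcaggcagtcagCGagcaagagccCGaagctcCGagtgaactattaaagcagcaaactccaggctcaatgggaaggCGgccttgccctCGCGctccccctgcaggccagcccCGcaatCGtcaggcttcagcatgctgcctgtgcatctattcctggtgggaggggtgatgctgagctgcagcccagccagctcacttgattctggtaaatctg
Asf1b: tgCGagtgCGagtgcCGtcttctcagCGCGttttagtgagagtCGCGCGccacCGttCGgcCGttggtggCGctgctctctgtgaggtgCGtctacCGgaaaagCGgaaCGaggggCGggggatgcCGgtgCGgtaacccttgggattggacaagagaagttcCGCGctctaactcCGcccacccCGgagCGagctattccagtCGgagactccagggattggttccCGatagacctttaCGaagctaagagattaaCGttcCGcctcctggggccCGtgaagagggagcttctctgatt
The next 3 had a top peak in both H3WT lists and in neither H3R2C list. They are at chr14:20838526-20838825, chr15:100332176-100332475 and chr16:17764626-17764925.
Plau: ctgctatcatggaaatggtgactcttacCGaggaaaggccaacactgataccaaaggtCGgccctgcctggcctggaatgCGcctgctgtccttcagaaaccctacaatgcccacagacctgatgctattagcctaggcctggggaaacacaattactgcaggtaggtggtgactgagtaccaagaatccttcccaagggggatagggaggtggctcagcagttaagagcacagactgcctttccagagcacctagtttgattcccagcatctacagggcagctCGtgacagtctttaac
Mettl7a3: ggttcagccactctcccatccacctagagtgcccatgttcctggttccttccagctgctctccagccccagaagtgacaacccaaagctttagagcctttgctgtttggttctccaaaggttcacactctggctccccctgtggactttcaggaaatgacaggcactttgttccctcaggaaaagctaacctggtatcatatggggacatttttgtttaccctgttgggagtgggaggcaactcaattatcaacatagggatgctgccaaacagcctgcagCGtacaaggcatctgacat
Klhl22: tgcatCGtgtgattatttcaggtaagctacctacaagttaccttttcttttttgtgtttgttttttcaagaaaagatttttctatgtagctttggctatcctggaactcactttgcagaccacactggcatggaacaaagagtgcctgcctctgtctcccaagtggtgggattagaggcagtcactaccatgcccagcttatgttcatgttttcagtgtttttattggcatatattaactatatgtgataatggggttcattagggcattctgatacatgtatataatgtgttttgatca
The last pair was in all 4 lists and belongs to the sites of very high coverage, at chr2:98666976-98667275 and chr14:19417176-19417475.
Gm10800: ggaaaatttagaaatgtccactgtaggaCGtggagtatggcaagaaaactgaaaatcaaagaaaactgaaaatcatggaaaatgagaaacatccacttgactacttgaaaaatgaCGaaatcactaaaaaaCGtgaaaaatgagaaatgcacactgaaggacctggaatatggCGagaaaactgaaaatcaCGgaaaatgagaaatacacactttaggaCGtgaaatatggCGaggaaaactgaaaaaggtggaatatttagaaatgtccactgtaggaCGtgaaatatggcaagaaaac
Gm21738: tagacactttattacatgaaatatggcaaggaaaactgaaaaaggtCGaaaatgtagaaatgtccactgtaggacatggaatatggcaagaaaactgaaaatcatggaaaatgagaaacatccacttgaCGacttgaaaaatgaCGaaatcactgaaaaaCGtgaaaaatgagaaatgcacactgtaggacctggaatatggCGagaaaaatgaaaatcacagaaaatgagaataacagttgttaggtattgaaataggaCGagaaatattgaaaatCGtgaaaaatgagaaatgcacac

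The first 3 sequences hold 25, 18 and 30 CpG, and their peak centres lie 96, 92 and 81 bp from an annotated start. The 3 from H3WT hold 4, 1 and 1 CpG. The H3WT peak over Plau was 13250 bp wide and its centre lay 1952 bp from the start, that of Mettl7a3 was 3150 bp wide with its centre 2603 bp away, and that of Klhl22 was 2450 bp wide with its centre 683 bp away. The printed H3R2C sites are CpG-dense sequence under peaks of 400 to 1000 bp, and the printed H3WT sites are CpG-poor sequence under wider peaks. Gm13289 and Gm13290 hold largely the same sequence, so they are not separate examples. Asf1b and Klhl22 were printed out of order, at ranks 8 and 4 among the named genes of their kinds. These few sites do not stand for all sites of a genotype. The centres of Plau and Mettl7a3 lie outside the start window that their peaks touch, and that of Klhl22 lies inside it. The pair shared by all lists holds 8 and 7 CpG.

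More of the top peaks were centred on gene starts in H3R2C than in H3WT. A peak was placed by the centre of its region of maximum signal, and a start site was the 1 kb on either side of an annotated gene start. The share at start sites was 9.97% and 12.2% in the H3WT lists and 12.4% and 17.3% in the H3R2C lists, where such windows make up 5.88% of the genome. All 4 lists were above the genome share, and both H3R2C lists were above both H3WT lists, although H3R2C replicates 1 and 2 stood close to H3WT replicate 3. The H3WT mean was 11.1% ± 1.58 and the H3R2C mean 14.8% ± 3.47 (SD over 2 lists), a difference of 3.76 percentage points (exact permutation p = 0.333). In both genotypes replicate 3 had the higher share.

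The share centred in gene bodies was lower in H3R2C. It was 49.6% and 48.2% in the H3WT lists against 42.6% and 44.8% in the H3R2C lists, a difference of -5.18 percentage points between the means (exact permutation p = 0.333), and gene bodies outside start windows make up 40.4% of the genome. Intergenic centres made up 40.4% and 39.6% in H3WT and 45.01% and 37.9% in H3R2C, so the genotypes overlapped there (exact permutation p = 1), and all 4 lists were below the 53.7% of the genome that is intergenic. The GC content of the 300 bp at the centres, against a genome mean of 41.7%, differed between replicates and not between these genotypes. It was 45.2% and 48.0% in the H3WT lists and 45.3% and 48.0% in the H3R2C lists (difference of the means 0.0793 percentage points, exact permutation p = 0.667).

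**Figure D2:**
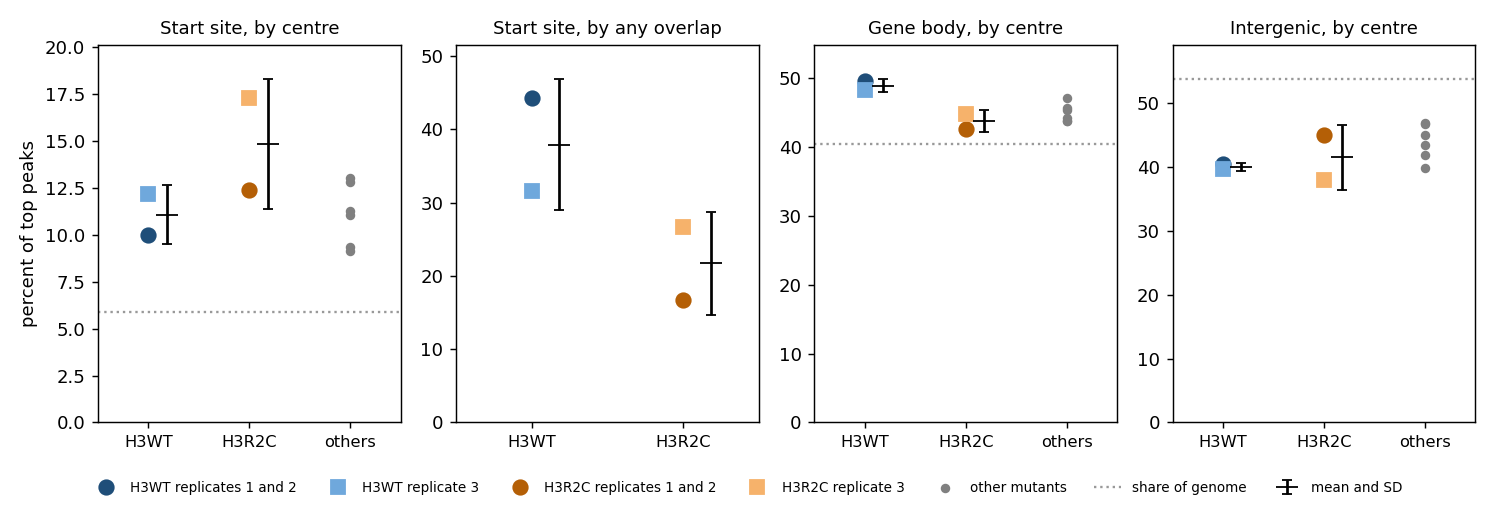
Points give the percent of the 15344 top peaks of each list at start sites (by centre, and by any overlap of the whole peak), in gene bodies and between genes, with the mean and SD of each genotype, the 6 lists of the other mutants in grey and the share of the genome as a dotted line. By centre, the H3R2C lists have 12.4% and 17.3% at start sites against 9.97% and 12.2% in H3WT, and by overlap the order turns.

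How the peak was placed decided the direction. When a peak counted as soon as any bp of it touched a start window, the share at start sites was 44.2% and 31.6% in H3WT and 16.8% and 26.6% in H3R2C, so that H3WT was 16.2 percentage points higher. The wide H3WT peaks reach more starts without being centred on them. With all peaks of each list the centred share was 9.97% and 11.48% in H3WT and 10.3% and 13.9% in H3R2C, and the genotypes overlapped. Within equal numbers of top peaks per chromosome, 15054 in all, it was 9.97% and 11.997% against 12.5% and 17.7%.

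The start-site share of H3R2C overlapped that of the other mutants. Their 6 lists had 9.16 to 13.03% (mean 11.1% ± 1.65, SD, n = 6), and H3R2C was 3.73 percentage points above their mean (exact permutation p = 0.214). H3R2C replicate 3 was above all 6, and H3R2C replicates 1 and 2 lay within their range. In gene-body share H3R2C differed from them by -1.25 percentage points (exact permutation p = 0.286).

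The chromosomes on which the top peaks lay also differed between the genotypes. Chromosome 15, which makes up 3.82% of the genome, held 8.22% and 9.24% of the top peaks in the H3WT lists and 17.4% and 20.4% in the H3R2C lists, a ratio of the means of 2.17. Chromosome 10 held 7.22% and 6.30% against 11.3% and 9.88% (ratio 1.57), and chromosome 17 held 6.14% and 7.53% against 8.89% and 11.1% (ratio 1.46). Chromosome 8 was the fourth autosome with both H3R2C lists above both H3WT lists, at 6.58% and 8.30% against 8.39% and 9.18%.

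Chromosome 16 showed the opposite. It held 6.07% and 6.05% of the top peaks in the H3WT lists and 1.68% and 0.749% in the H3R2C lists, a ratio of 0.200, where its share of the genome is 3.60%. Chromosome 13 held 4.13% and 3.21% against 1.33% and 0.815% (ratio 0.293), and chromosome 9 held 5.56% and 5.56% against 2.83% and 2.08% (ratio 0.442). In all, 4 of 19 autosomes (21.1%) were higher in both H3R2C lists and 11 (57.9%) were lower. The shares of a list sum to a fixed whole, so the rises described above by themselves lower the shares of the other chromosomes. How much of each fall came with them was not tested. With all peaks of each list the counts were 6 and 9. All autosomes together held 97.9% and 98.3% of the top peaks in H3WT and 97.4% and 98.1% in H3R2C, against 90.4% of the genome (exact permutation p = 0.667).

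**Figure D3:**
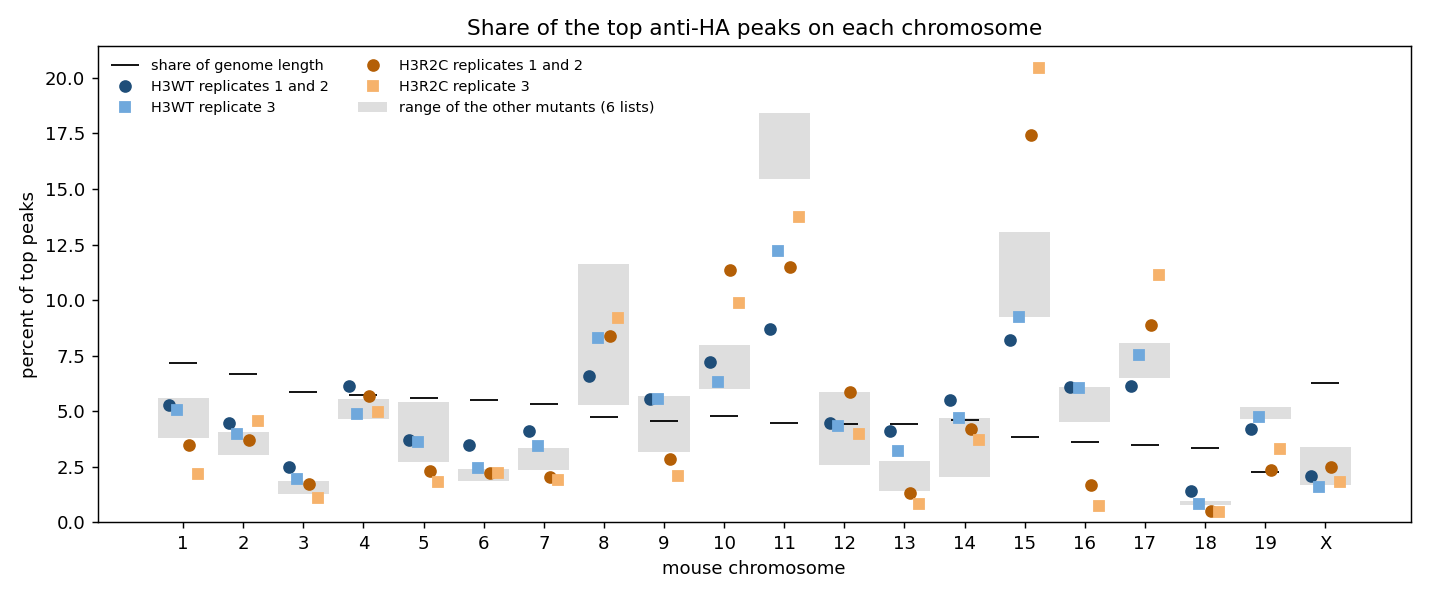
Each point is the percent of the 15344 top peaks of 1 list that lay on a chromosome, black bars give the share of the genome length (chromosome Y is left out) and grey boxes span the 6 lists of the other mutants. Chromosome 15 has 17.4% and 20.4% in the H3R2C lists, above every other list, and chromosome 16 has 1.68% and 0.749%, below every other list.

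The same chromosomes set H3R2C apart from the other mutants. On chromosome 15 the 6 lists of the other mutants held 9.23 to 13.1% of their top peaks, on chromosome 10 they held 6.002 to 7.97%, and on chromosome 17 they held 6.48 to 8.05%, so that on these 3 autosomes both H3R2C lists were above all 8 others. On chromosome 16 the other mutants held 4.52 to 6.07%. Both H3R2C lists were below all 6 lists of the other mutants on 9 autosomes, among them chromosomes 16, 13 and 9. On chromosome 11 the other mutants held 15.5 to 18.4%, more than any of the 4 lists of H3WT and H3R2C, which held 8.69% and 12.2%, and 11.47% and 13.7%.

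The shifts were spread along chromosomes 15, 17, 10 and 16. Of the 11 bins of 10 Mb on chromosome 15 with at least 20 top peaks over the 4 lists, both H3R2C lists had more top peaks than both H3WT lists in 10 and fewer in 0. On chromosome 17 this was so in 9 of 10 bins, and on chromosome 10 in 7 of 13. On chromosome 16 both H3R2C lists had fewer in 7 of 10 bins and more in 0. Other chromosomes also had many such bins. On chromosome 1 both H3R2C lists had fewer in 11 of 16 bins and more in 1. Chromosome 7 had fewer in 9 of 15 bins and more in 3, and chromosome 8 more in 5 of 13 and fewer in 1. Chromosome 9 had fewer in 9 of 12 bins and more in 0. On chromosomes 2, 4, 11 and 12 the genotypes overlapped in share of top peaks. There both H3R2C lists had more in 3 bins of each chromosome. They had fewer in 6 of 16, 6 of 15, 4 of 13 and 2 of 12 bins. Measured by covered length, chromosome 15 held 8.63% and 9.68% of the top-peak bp in H3WT and 17.8% and 21.5% in H3R2C.

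With another antibody on cells of the same genotypes, some chromosomes shifted the same way and others did not. Among equal numbers of top anti-H3K27me3 peaks, 20543 a list, chromosome 15 held 3.97% and 4.19% in H3WT and 5.91% and 6.69% in H3R2C (ratio 1.54), and chromosome 10 held 4.64% and 4.78% against 6.46% and 6.12% (ratio 1.34). Chromosome 13 was lower, at 3.57% and 3.77% against 3.08% and 2.62% (ratio 0.776). Chromosomes 8 and 17 were also higher, and chromosome 1 lower, with both antibodies. On chromosome 16 the H3K27me3 lists overlapped, at 2.93% and 3.17% against 3.03% and 2.52%. They also overlapped on chromosomes 5, 7, 9, 14 and 18, which were lower with anti-HA. Chromosomes 3, 6 and 19 were lower in both anti-HA lists of H3R2C (ratios 0.628, 0.753 and 0.634). With anti-H3K27me3 these chromosomes were higher in both (ratios 1.12, 1.302 and 1.18). Of the 19 autosomes, 11 were higher and 2 lower in both H3R2C lists. The X chromosome held 17.7% and 12.5% of the H3K27me3 peaks in H3WT and 4.79% and 5.47% in H3R2C. The autosomes together therefore held more of them, which by itself raises their shares. How much of the rise on a single autosome came with this was not tested. The anti-HA falls are limited in the same way by the rises on other chromosomes. The number of copies of each chromosome in the cells was not measured here, and its part in the shares was not tested.

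At the level of genes, more protein-coding starts had a recurrent peak only in H3WT than only in H3R2C. A gene was counted where a top peak touched the 1 kb on either side of one of its starts. Of 21938 protein-coding genes, 5040 (23.0%) and 2926 (13.3%) were counted in the H3WT lists and 1662 (7.58%) and 2740 (12.5%) in the H3R2C lists. A top peak in both H3R2C lists and neither H3WT list was found at 179 genes (0.816%), the reverse at 958 genes (4.37%), and a peak in all 4 lists at 595 genes (2.71%). This balance depended on how a peak was placed, and the part of peak width in it was not tested. When the centre of maximum signal had to lie in the window, 350 genes (1.6%) were only in H3R2C and 125 (0.57%) only in H3WT, and with all peaks of each list the counts were 580 (2.64%) and 708 (3.23%).

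These genes were called from the same top peaks, so the chromosomes they lie on are no separate support for the chromosome shares above. Of the 179 genes only in H3R2C, 71 (39.7%) were on chromosomes 10, 15 and 17, a set chosen after the values were seen, which hold 13.05% of the protein-coding genes. Of the 958 only in H3WT this was 137 (14.3%), and of the 595 in all lists 240 (40.3%). Chromosome 15 held 28 of the genes only in H3R2C, and chromosome 16 held 2 of them but 75 of those only in H3WT, which was 11.3% of the protein-coding genes of chromosome 16. With equal numbers of top peaks within each chromosome, 184 genes (0.839%) were only in H3R2C and 920 (4.19%) only in H3WT, and 122 of the 179 and 743 of the 958 were among them.

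The genes only in H3R2C were also looked up in the 6 lists of the other mutants. Of the 179, 73 (40.8%) had a top peak in at least 1 of these lists, where 17.7% of all protein-coding genes did, and 6 (3.35%) had one in at least 4, where 4.27% of all did. Of the 958 only in H3WT, 653 (68.2%) had one in at least 1 list and 156 (16.3%) in at least 4. Of the 595 in all 4 lists, 573 (96.3%) had one in at least 1 and 199 (33.4%) were in all 6.

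The starts found only in H3R2C held more CpG than those found only in H3WT. In the 1 kb around the 5′ end of the gene, the median was 55 CpG for the genes only in H3R2C (quartiles 35.5 and 73.5), 44 for those only in H3WT (17 and 70), 50 for those in all lists (18 and 71) and 41 over all protein-coding genes (12 and 69). Per list, the median over the genes counted was 49 and 46 CpG in H3WT and 51 and 53 in H3R2C, which did not overlap (means 47.5 ± 2.12 and 52 ± 1.41, SD, n = 2, exact permutation p = 0.333). With the centre rule the lists gave 51 and 47 against 52 and 57, and the medians were 56.5 for the genes only in H3R2C, 49 for those only in H3WT and 57 for those in all lists.

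Scaled signal was used to describe single genes. It is the mean signal per bp over a whole peak, the highest among all peaks of a list that touch the start window. It was divided by the median over the 1417 gene starts with a peak in every list. A value of 1 is thus a usual shared start, and 0 means that no peak was listed. That median was 7.68 and 4.23 in the H3WT lists and 2.42 and 3.39 in the H3R2C lists, in coverage per bp.

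The 10 genes only in H3R2C with the highest lowest value were Gm13289, Gm13290, Gm4302, Gm13285, Zfp980, Zfp119a, Gm10644, Asf1b, Manea and Zfp960. Gm13289 had scaled signals of 5.72 and 4.09 in the H3R2C lists and 0 in both H3WT lists. It lies with Gm13285 and Gm13290 in the type I interferon gene cluster of chromosome 4. Gm13285 had 1.81 and 2.44 in H3R2C and 0 in both H3WT lists, and Gm13290 had 2.81 and 4.66 in H3R2C, with 0 and 3.26 in H3WT, where the peak of replicate 3 was below the top peaks. These predicted genes and the zinc finger genes Zfp980, Zfp119a and Zfp960 belong to families of near-identical copies, among which short reads can be split, so their values are uncertain.

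Among the single-copy genes, Asf1b encodes the histone chaperone that hands H3 and H4 to CAF-1 in dividing cells. Its start, on chromosome 8, had scaled signals of 0 and 0.877 in the H3WT lists and 1.45 and 1.70 in the H3R2C lists, and the neighbouring predicted gene Gm10644 shares that peak. Asf1b had a top peak in 0 of the 6 lists of the other mutants. Manea, a mannosidase of the Golgi, had 0 in both H3WT lists and 1.39 and 1.504 in the H3R2C lists. Further down the order, and named after the values were seen, Mad2l1, a protein of the spindle checkpoint, had 0 in both H3WT lists and 1.16 and 2.12 in the H3R2C lists, the actin-crosslinking gene Actn1 had 0 against 1.09 and 1.13, and Tpm1, a tropomyosin, had 0 and 0.933 against 1.42 and 1.35.

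The 10 genes only in H3WT were Plau, Mettl7a3, Lgals3, Klhl22, Tlr3, Gng7, Galr3, Gm3336, Slc12a8 and 2010111I01Rik. Plau, the urokinase-type plasminogen activator, had scaled signals of 1.73 and 1.48 in H3WT and 0.798 and 0.818 in H3R2C, where its peaks were below the top peaks. Lgals3, which encodes the sugar-binding protein galectin-3, had 1.51 and 1.39 against 0.853 and 0.794. Klhl22, an adaptor of a cullin ubiquitin ligase on chromosome 16, had 1.42 and 1.33 in H3WT and 0 in both H3R2C lists, with a top peak in all 6 lists of the other mutants. Tlr3, the receptor for double-stranded RNA, had 1.37 and 1.29 against 0 and 0.697. Gng7, a G-protein subunit, had 1.33 and 1.27 against 0.803 and 1.52, so its scaled signals overlapped although its H3R2C peaks missed the top of their lists. The total signal that ranks peaks grows with width. Scaled signal is a mean over the whole peak, so parts of low coverage in a wide peak lower it.

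**Figure D4:**
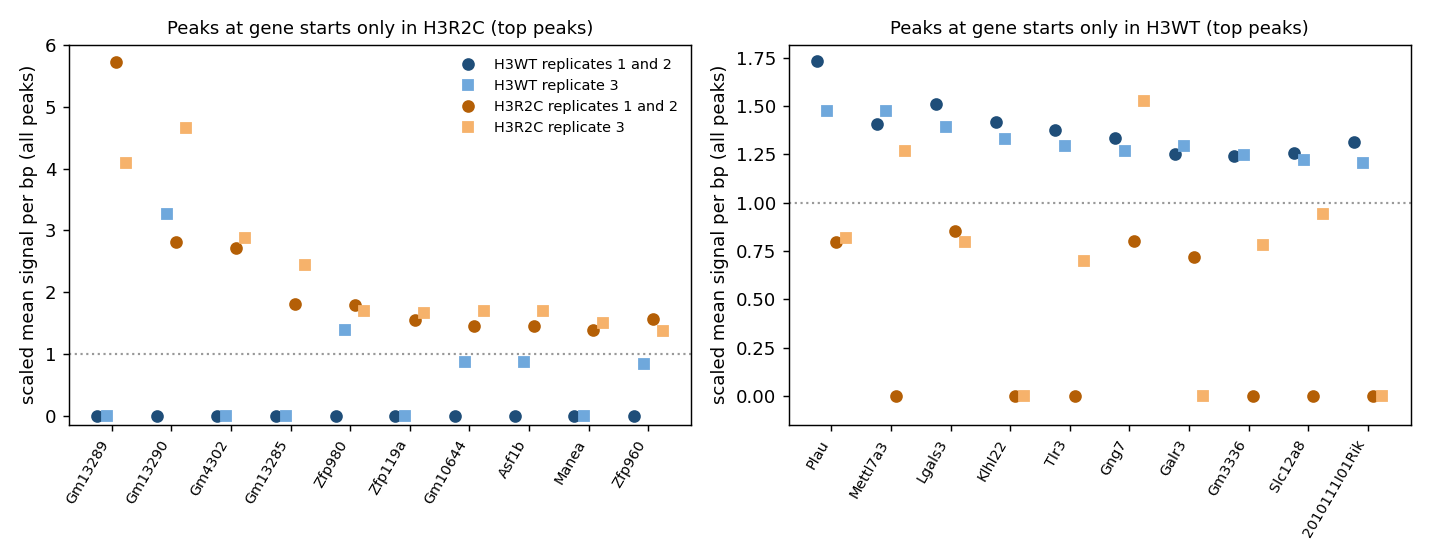
Points give the scaled mean signal per bp in each of the 4 lists for the 10 named genes with a top peak only in H3R2C (left) and only in H3WT (right), with 0 where no peak was listed and a dotted line at 1, the median of shared starts. Asf1b has 1.45 and 1.70 in the H3R2C lists against 0 and 0.877 in H3WT, and Gng7 overlaps between the genotypes.

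The 10 genes in all lists with the highest values were predicted genes at the sites of very high coverage, Gm10800 and Gm10801 on chromosome 2, Gm21738 on chromosome 14, and Gm10722, Gm11168, Gm10721, Gm10720, Gm10719, Gm10718 and Gm10717 on chromosome 9. Gm10800 had a mean signal per bp of 72478 and 75805 in H3WT and 67587 and 102353 in H3R2C. Of the annotated genes in all lists, some named after the values were seen were near each other in all 4 lists and others were far apart. Slc25a10, a mitochondrial dicarboxylate carrier, had scaled signals of 1.53 and 1.48 in H3WT and 1.44 and 1.49 in H3R2C. Gcgr, the glucagon receptor gene, had 1.77 and 1.67 against 1.41 and 1.45, and Alad, an enzyme of heme synthesis, had 2.20 and 1.96 against 1.59 and 1.77, so that these last 2 genes did not overlap between the genotypes. Litaf, on chromosome 16, had 1.81 and 1.26 in H3WT and 10.2 and 3.15 in H3R2C. Ank1, which encodes an ankyrin, had 4.38 and 28.5 against 38.6 and 42.9, and Oasl1 had 5.42 and 20.6 against 15.0 and 25.2, so that the H3WT lists differed strongly between themselves at both.

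Gene lists of chromatin factors and lineages held few members with recurrent differences. The values are positions of a tagged histone and do not measure expression. Over all protein-coding genes 23.0% and 13.3% had a top peak at the start in the H3WT lists and 7.58% and 12.5% in the H3R2C lists, 0.816% only in H3R2C and 4.37% only in H3WT. Of 11 H3 histone chaperones, 5 and 2 (45.5% and 18.2%) had one in the H3WT lists and 2 and 3 (18.2% and 27.3%) in the H3R2C lists. Asf1b was the member only in H3R2C and 0 members were only in H3WT, which became 1 with equal numbers of top peaks within each chromosome. Daxx, the chaperone of H3.3, had 0 and 0.776 in H3WT and 1.61 and 0.960 in H3R2C. Nasp, Hira, Ubn1 and Mcm2 had a top peak in H3WT replicates 1 and 2 alone. Of 9 protein arginine methyltransferases, 3 and 1 had a top peak in the H3WT lists and 1 and 2 in the H3R2C lists, and Prmt7 was the member in all lists, at 0.938 and 0.8499 against 0.855 and 0.806.

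Of 12 subunits of Polycomb Repressive Complex 2, which trimethylates lysine 27, 3 and 2 (25% and 16.7%) had a top peak in the H3WT lists and 1 and 1 (8.33% in each) in the H3R2C lists, shares near those over all protein-coding genes. Ezh1, a catalytic subunit, was in all lists at 1.17 and 1.15 against 0.901 and 1.17, and Phf1, an accessory subunit, was only in H3WT at 0.699 and 0.833, with no peak in H3R2C, though not with equal numbers of top peaks within each chromosome. Of 12 genes of H3K4 methyltransferase complexes, 4 and 2 against 1 and 2 had one, and Men1, which encodes menin, was in all lists at 0.890 and 0.857 against 0.853 and 1.18.

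Among the lineage lists, bone genes had the most members only in H3WT. Of 8 bone genes, 4 and 4 (50% in each) had a top peak in the H3WT lists and 1 and 1 (12.5% in each) in the H3R2C lists, and 2 were only in H3WT. With all peaks of each list the counts were 4 and 4 against 2 and 4. Alpl, an alkaline phosphatase of mineralising cells, had scaled signals of 0.876 and 0.958 in H3WT and 0 and 0.791 in H3R2C, and Bmp4, a bone morphogenetic protein, had 1.07 and 0.963 against 0 and 0.713. Sp7, the transcription factor osterix, on chromosome 15, was in all lists at 1.41 and 1.40 against 0.899 and 0.983. Of 8 cartilage genes, 3 and 2 against 1 and 2 had a top peak, with Col2a1 in all lists. Of 8 fat genes, 2 and 0 against 0 and 0 had one. With equal numbers of top peaks within each chromosome, 1 fat gene was only in H3R2C. Cebpa had no peak in H3WT and scaled signals of 1.08 and 1.01 in H3R2C, below the top peaks. Pparg had 0.873 and 0.675 in H3WT and no peak in H3R2C. Of 8 myogenic genes, 0 had a top peak in any list. Of 12 mesenchymal markers, 3 and 0 against 2 and 1 had one, and of 15 markers of other cell types 6 and 4 against 2 and 5.

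The starts of the histone genes themselves held no top peak. Of 67 replication-dependent histone genes, 0 had a top peak in any of the 4 lists and 58 had no peak of any rank. Of 39 Hox genes, 2 and 0 against 0 and 3 had a top peak, and of 12 housekeeping genes 0 and 1 against 0 and 0, where 23.0% and 13.3% against 7.58% and 12.5% of all protein-coding genes did. Reads from gene families of near-identical copies can match several places. How such reads were treated was not given in the sources used here, and its part in these counts was not tested.

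**Figure D5:**
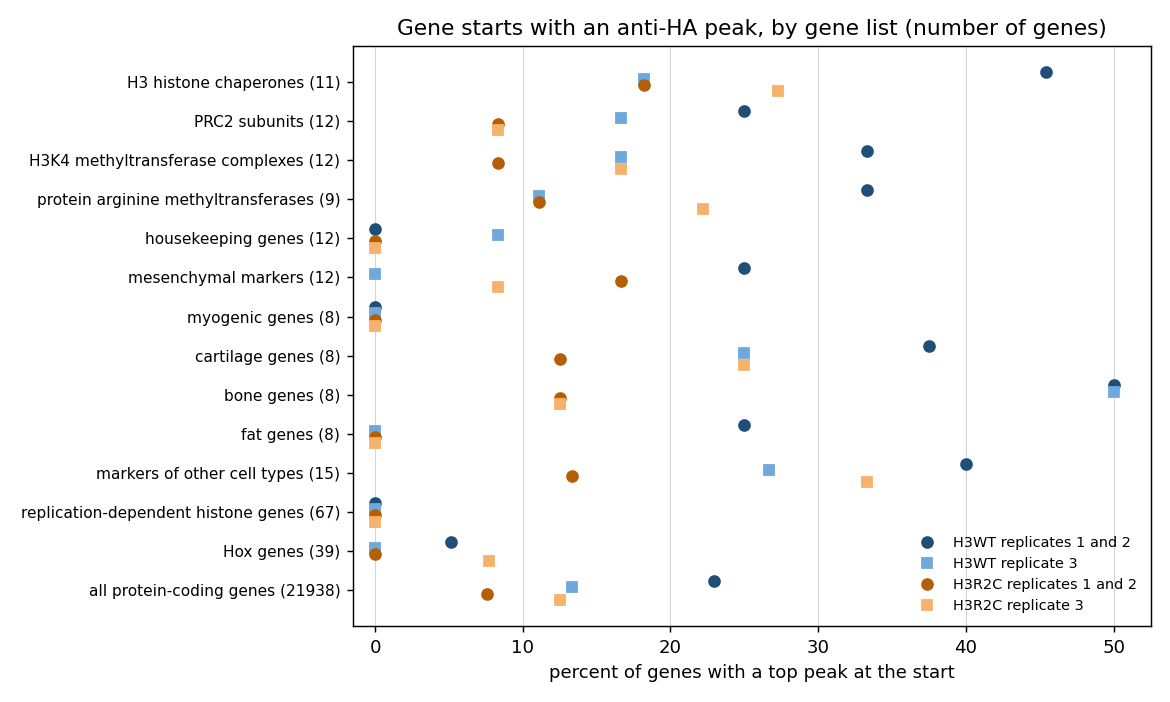
Points give the percent of the genes of each list (number of genes in brackets) with a top peak at the start in each of the 4 peak lists. Bone genes have 50% in both H3WT lists and 12.5% in both H3R2C lists, and replication-dependent histone and myogenic genes have 0% in every list.

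The signal at shared starts did not pass a test in either direction. Over the 1417 starts with a peak in every list, limma on log2(scaled signal + 0.25) called 0 (0%) higher and 0 (0%) lower in H3R2C at a Benjamini-Hochberg adjusted p of 0.05, with 99 (6.99%) and 109 (7.69%) at an unadjusted p under 0.05. The lowest adjusted p values in the higher direction were those of Pnpla7, a lysophospholipase (log2 change 1.04, SE 0.145, adjusted p = 0.196), Prrg2 (0.72, SE 0.135, adjusted p = 0.217) and Sec16a, which organises exit sites of the endoplasmic reticulum (0.63, SE 0.119, adjusted p = 0.217). In the lower direction they were Plau (-0.81, SE 0.137), Gucy2d, a guanylate cyclase (-0.64, SE 0.120), and Lgals3 (-0.66, SE 0.129), each with an adjusted p of 0.217. Pnpla7 had scaled signals of 0.595 and 0.760 in H3WT and 1.55 and 1.75 in H3R2C, so that the genotypes did not overlap. Starts that lack a peak in any list were left out here, so signal at the rest cannot show the shifts in peak numbers between chromosomes. The median log2 change was 0.02 over 256 starts on chromosome 15, 0.06 over 126 on chromosome 10 and -0.16 over 19 on chromosome 16.

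Top peaks of tagged H3R2C were centred more often in H3K27me3 peaks than those of tagged H3WT, but much of this came with the H3K27me3 lists used. In the H3K27me3 peaks of the same genotype, which cover 4.69% of the genome in H3WT and 5.13% in H3R2C, lay 9.07% and 7.83% of the H3WT centres and 12.7% and 15.8% of the H3R2C centres. The means were 8.45% ± 0.876 and 14.3% ± 2.23 (SD, n = 2), 5.81 percentage points apart (exact permutation p = 0.333). Set against the H3WT H3K27me3 peaks alone, the shares were 9.07% and 7.83% in H3WT and 9.10% and 11.3% in H3R2C, and against the H3R2C H3K27me3 peaks alone they were 12.3% and 11.1% against 12.7% and 15.8%. Both H3R2C lists stayed above both H3WT lists, with differences of the means of 1.74 and 2.56 percentage points.

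The peaks of the 2 lists of a genotype overlapped only in part. Of the top peaks of H3WT replicate 3, 71.2% touched a top peak of H3WT replicates 1 and 2, which covered 7.83% of the genome. Of the top peaks of H3R2C replicate 3, 28.2% touched one of H3R2C replicates 1 and 2, which covered 0.614%, and of those of H3R2C replicates 1 and 2, 35.3% touched one of H3R2C replicate 3, which covered 1.36%. The top peaks of H3R2C replicates 1 and 2 touched those of H3WT replicates 1 and 2 more often, at 47.0%, than those of their own genotype. Shares of overlap followed the length that the second list covered.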

How the data were processed

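CUT&RUN peak lists with anti-HA from H3WT, H3R2C, H3R8C, H3R17C and H3R26C cells, and with anti-H3K27me3 from H3WT and H3R2C cells, were analysed, grouped by the sample titles, and the remaining lists were not used here. Single-end reads had been mapped to mm10 by the authors with Rsubread, and peaks called in each sample with SEACR in stringent mode (version 1.3 per the submitters' processing notes). The study also gives a numeric threshold for SEACR, and its part in the length of each list was not tested. The authors modelled reads in peaks with DESeq2, which was not used here. The deposited lists give total and maximum signal, that is, coverage left unscaled by the authors. The study states read totals per sample, but the lists hold none, so no counting interval is given. How reads were filtered, and how duplicate or multiply matching reads were handled, is not given in the sources used here.

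From each list, the 15344 top peaks by total signal were placed on GENCODE release M21 (GRCm38, the same build as mm10) by the centre of the region of maximum signal, with starts taken 1 kb to either side of every annotated transcript start. Library values were compared by two-sided exact permutation tests (scipy 1.17.1). These measure the spread between the labelled samples, and whether they came from separate cultures was not stated in the labels. Start windows with a peak in every list were tested with limma 3.58.1 (lmFit and eBayes with trend) on log2(scaled signal + 0.25), with Benjamini-Hochberg adjustment, after the fit was tested on simulated data. Alternatives covered the peaks used, their ranking and placement, window, filter, pseudocount, scaling, replicate block, pooled spread, labelled replicates and each list left out. Alternatives that match or leave out chromosomes, that use 1 set of H3K27me3 peaks for both genotypes, or that set chromosome medians equal were chosen after seeing the data. The members and the gene lists were chosen with earlier results of these data known. The named genes were the members of 13 gene lists, the 10 genes of each kind (only in H3R2C, only in H3WT, in all lists) with the highest value of the lowest scaled signal, and the 3 with the lowest adjusted p in each direction.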

Additional observations from a re-analysis of the deposited data

Results flagged for a closer look

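One measurement lay outside the chromosomes compared above. The list shared by H3R2C replicates 1 and 2 held 1 peak on the mitochondrial chromosome, where the H3WT lists held 0 and H3R2C replicate 3 held 0, and it was looked at because this DNA has no nucleosomes and takes no part in the comparisons.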

How the results depend on the processing

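Covered length, median width and the share of centres in H3K27me3 peaks kept their direction under every alternative run. The higher start-site share and lower gene-body share of H3R2C kept theirs under 9 of 10 alternatives each, apart from lists left out, and turned with overlap of the whole peak, to -16.2 and 6.98 percentage points. Direction here is the sign of the difference of the means. In start-site share the genotypes overlapped with all peaks, with ranking by maximum signal and with a window of 3 kb (exact permutation p = 0.667 for each). With all peaks the autosome difference became 0.0172 and the GC difference -0.866 percentage points, and GC became -0.113 without autosomes 10, 13, 15 and 16. Leaving out 1 list at a time gave differences of 1.303 to 6.21 for start sites, -6.31 to -4.06 for gene bodies, -2.15 to 5.01 for intergenic centres, -1.298 to 1.46 for GC, -187 to -55.9 Mb for covered length (-121 with every list), -9.18 to -2.78 kb for median width (-5.98 with every list), both moving by over 1.5 times when either H3WT list was left out, and 1.28 to 6.18 for start sites against the other mutants, where the intergenic direction turned without H3R2C replicates 1 and 2 (-2.15) and that of GC without H3WT replicates 1 and 2 (-1.298) or H3R2C replicate 3 (-1.29).

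The counts of genes depended on the setting. Genes only in H3R2C numbered 580 with all peaks, 90 with the upper 50% of peaks, 350 by the centre, 35 with 50% of the window covered and 501 with all 3 labelled replicates. Genes only in H3WT numbered 125 by the centre and 2945 with all 3 labelled replicates. Genes in all lists numbered 1417, 313, 107 and 174 under the first 4 of these settings, 1013 with a window of 3 kb and 1083 with all 3 labelled replicates. Leaving out 1 list gave 229 to 813 genes only in H3R2C (331 without H3WT replicates 1 and 2, 813 without H3R2C replicates 1 and 2, 501 without H3R2C replicate 3), 1120 to 2945 only in H3WT (2945 without H3WT replicate 3, 1626 without H3R2C replicate 3) and 645 to 1263 in all lists (1263 without H3R2C replicates 1 and 2). The cause of these moves was not tested beyond their construction, in which fewer lists or more peaks are asked for.

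The limma counts were 0 in both directions in 10 of the 13 alternatives that left no list out. With starts lacking a peak in 1 genotype added as 0 they were 591 higher and 734 lower, where the fixed 0 takes away the spread between lists, and with all 3 labelled replicates, which enter identical lists as 2, they were 138 and 228. With the replicate number as a block they were 2 and 0. The deviations of same-numbered lists had a correlation of 0.0524 over 1417 starts, so the numbers were not taken to pair the lists. Leaving out 1 list, with the lone list of a genotype assumed to vary like the other pair, gave 1 to 198 higher (1 and 4 without an H3WT list, 198 and 184 without an H3R2C list) and 0 to 169 lower (0 without either H3WT list, 131 and 169 without an H3R2C list). With signal as deposited, Prrg2 and Sec16a turned to -0.12 and -0.18. Shallow coverage, a median maximum signal of 5 to 16 in the top peaks, and 2 lists per genotype limit what these lists can show.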
